A study of Mus musculus with 15 samples.

Results

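The plasminogen activator system is represented here by 4 genes, Plau, Plaur, Plat and Serpinb2, out of 8251 genes with a probe set annotated to a single symbol. The genes were chosen by name, and each was measured by 1 probe set: 97772_at for Plau, 102663_at for Plaur, 93981_at for Plat and 92978_s_at for Serpinb2. The suffix of the last one marks probes that can match more than one transcript. Expression was measured on 15 Affymetrix arrays in RAW 264.7, a mouse macrophage-like cell line that forms osteoclasts, the bone-resorbing cells, when it receives the cytokine RANKL. RANKL cells gave 1 array at day 1 and 2 arrays at each of days 2, 4 and 5. Control cells, cultured for the same times without RANKL, gave 1 array at day 1, 2 arrays at each of days 2, 3 and 4, and 1 array at day 5. Cells were kept in alpha-MEM containing serum, and RANKL was given on days 0 and 3 in alpha-MEM free of serum. The labels describe RANKL cells as mononuclear at days 1 and 2 and as multi-nuclear at days 4 and 5, and all control cells as mononuclear. RANKL cells at day 3 were not analysed here. All arrays come from 1 cell line, and the labels do not say whether replicate arrays come from separate cultures, so p-values measure only the spread between these arrays, which may be technical.

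Urokinase, the product of Plau, and tissue-type plasminogen activator, the product of Plat, are serine proteases that cleave plasminogen to plasmin, a protease that digests fibrin and matrix proteins and activates some latent enzymes and growth factors. Plaur encodes the urokinase receptor, a GPI-anchored surface protein that holds urokinase at the cell edge and binds integrins and vitronectin. Serpinb2 encodes plasminogen activator inhibitor 2, a serpin of macrophages that inhibits urokinase and tissue-type activator and stays largely inside the cell. Macrophages use surface-bound urokinase in migration and matrix breakdown.

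Plau was the one member that passed the test for RANKL: averaged over the 4 days that have both treatments, its signal was 2.30-fold higher in RANKL cells. By day, its RANKL arrays lay above the control at day 1, where 1 array stands against 1, below the controls at day 2 and above them at days 4 and 5, and no single day passed. Plaur signals lay below the controls on most RANKL arrays from day 2 on, without passing the test. Plat and Serpinb2 were dim on every array and no difference was detected for them.

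Promoter sequence is shown for Plaur, the member whose RANKL arrays lay lowest against the controls and whose promoter was searched for the binding letters of transcription factors that act in osteoclast precursors. RefSeq (build GRCm38.p6) gave promoter windows, from 250 bases before to 50 bases after a gene's start, for 2 of the 4 genes, Plaur and Serpinb2; Plau and Plat were not matched. The letters searched on both strands were TGANTCA for AP-1, GAGGAA for PU.1 and GGAAA for NFAT, and no matches of different motifs overlapped in the Plaur window. The Plaur window lies at chr7:24462233-24462532 on the plus strand, and capitals mark the AP-1 and PU.1 letters.
Plaur: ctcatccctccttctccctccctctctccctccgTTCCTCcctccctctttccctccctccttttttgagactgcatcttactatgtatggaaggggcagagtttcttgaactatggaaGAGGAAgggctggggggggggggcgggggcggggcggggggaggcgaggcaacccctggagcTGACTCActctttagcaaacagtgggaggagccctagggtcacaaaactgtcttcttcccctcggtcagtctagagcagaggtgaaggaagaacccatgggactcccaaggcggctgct
The AP-1 letters TGACTCA begin 69 bases before the start, and the 2 PU.1 matches begin 131 and 216 bases before it, the second on the minus strand. The NFAT letters occur once, 202 bases before the start on the minus strand, and are not capitalised. The 2 Serpinb2 windows, which overlap, hold 1 and the same AP-1 match (TGAATCA, beginning 94 or 181 bases before the start used) and no PU.1 letters. NFAT letters also occur in both Serpinb2 windows. Over all 32851 promoter windows, 7.81% hold the AP-1 letters, 28.3% the PU.1 letters and 61.3% the NFAT letters. These matches describe letters and not binding.

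The values are MAS5 signals, in linear intensity units, that the authors had scaled to a trimmed mean of 500 on every array. Array medians lay between 103 and 149. The beta-actin ratio, the signal at the 3' end of the transcript over that at the 5' end, reflects RNA quality and lay between 1.01 and 1.39. Of 6 represented osteoclast markers the summed signal ran from 5598 to 31168 on RANKL arrays and from 1064 to 6192 on control arrays. Of the 6, 2 lay below the array median on all arrays. The RANKL minimum and the control maximum were the 2 day 1 arrays, so at day 1 the sum was lower with RANKL (5598 against 6192). Of 8 macrophage markers the summed signal ran from 29378 to 57990 on RANKL arrays and from 46881 to 61576 on control arrays, with 1 of the 8 below the median on all arrays. In the 9 comparisons of the design, 4 of the 6 osteoclast markers and 3 of the 8 macrophage markers passed at least once. Among markers of other cells, 0 of 6 stromal, 3 T cell, 3 B cell and 4 neutrophil markers passed, and 1 of 5 endothelial markers did, Vwf with culture time in RANKL cells. In such bulk samples, fewer cells of a kind and less RNA per cell cannot be told apart.

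Plau, urokinase, had a signal of 643 on day 1, 268 and 280 on day 2, 596 and 1354 on day 4, and 1830 and 1826 on day 5 in RANKL cells. In control cells it had 112 at day 1, 348 and 569 at day 2, 326 and 234 at day 3, 335 and 384 at day 4, and 442 at day 5. Both RANKL arrays of day 2 lay below both control arrays of that day, while all 4 RANKL arrays of days 4 and 5 lay above all 8 control arrays. Over all probe sets, 19.2% had both RANKL arrays below both controls at day 2, and 17.5% had both above at day 4. For 49.2%, both RANKL arrays of day 5 lay above the 1 control array of that day. In 5.26%, all 4 RANKL arrays of days 4 and 5 lay above the 3 controls of those days. The share with these 4 arrays above all 8 control arrays was not computed. The day 1 control array had the lowest Plau signal of the whole series, and it stands alone in its group.

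**Figure D1:**
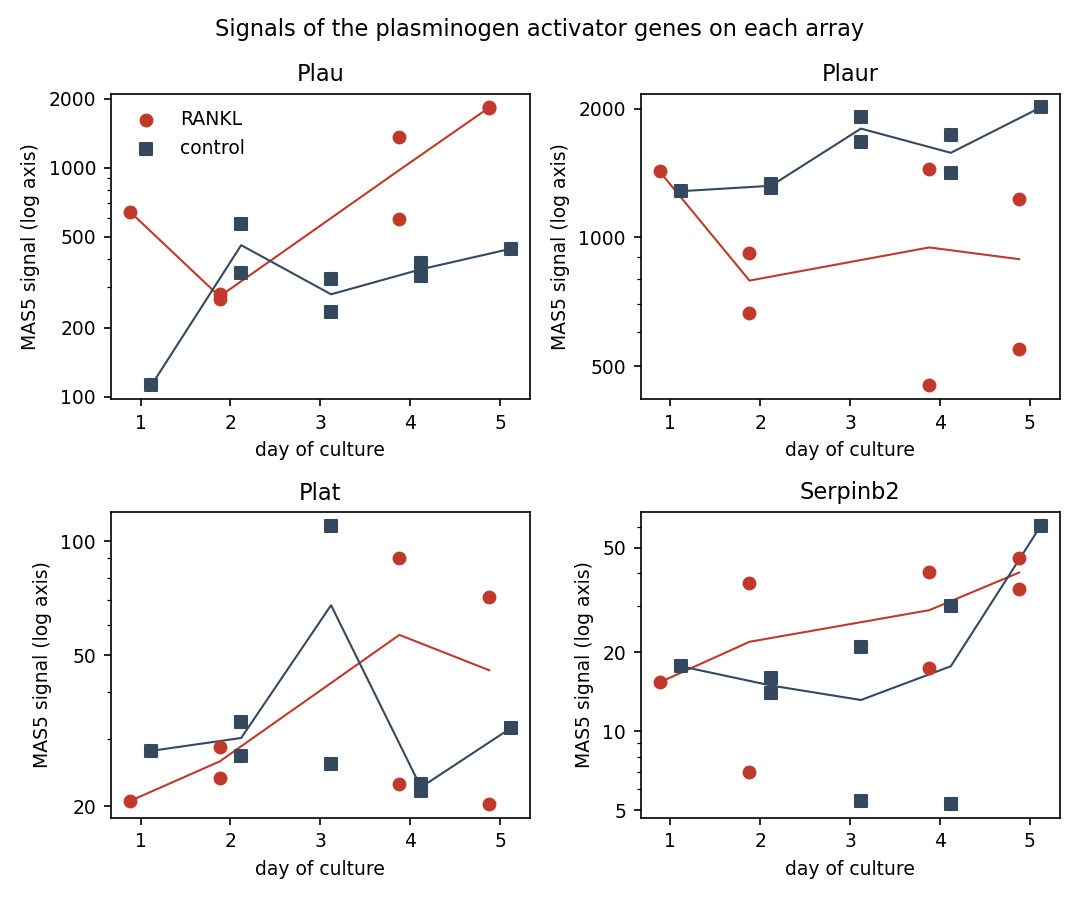
MAS5 signal (log axis) of each gene against day of culture, with 1 point for each array, RANKL arrays as red circles to the left and control arrays as dark squares to the right; lines join the mean of each day, and RANKL cells have no point at day 3. Plau points of RANKL cells reach 1830 and 1826 at day 5 against 442 in control cells, Plaur points of RANKL cells lie mostly below the control points, and no Plat or Serpinb2 point exceeds 110.

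Changes were tested with limma on log2(signal + 32) over all 12422 probe sets, two-sided, with Benjamini-Hochberg adjustment over all of them and a threshold of 0.05; differences are RANKL minus control with the standard error from the fit, and folds are on the same scale, which understates changes of dim genes. Averaged over days 1, 2, 4 and 5, Plau rose by 1.20 ± 0.20 (adjusted p = 0.0116; 95% interval 0.77 to 1.63). With it, 1 of the 4 genes passed, where 1.09% of all probe sets did. By day the Plau difference was 2.23 ± 0.47 on day 1 (adjusted p = 0.476), -0.64 ± 0.33 on day 2 (adjusted p = 0.58), 1.26 ± 0.33 on day 4 (adjusted p = 0.252) and 1.97 ± 0.41 on day 5 (adjusted p = 0.0511). No single day passed, so the call rests on the average.

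The averaged Plau call was lost when control day 5 replicate 1 was left out, so that the average held days 1, 2 and 4 alone (0.95, adjusted p = 0.175), and it passed in the other 22 of 23 alternatives. Without both day 1 arrays the Plau difference was 0.86 (adjusted p = 0.0453), and with the beta-actin ratio as a covariate it was 0.93 (adjusted p = 0.0433). The day 5 difference of Plau passed in 8 of 22 alternatives, with adjusted p from 0.015 to 0.178 over them. At day 4 the difference was 1.83 without RANKL day 4 replicate 1 (adjusted p = 0.0318) and 0.68 without RANKL day 4 replicate 2 (adjusted p = 0.659), and Plau did not pass there in the other 22 of 23 alternatives.

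**Figure D2:**
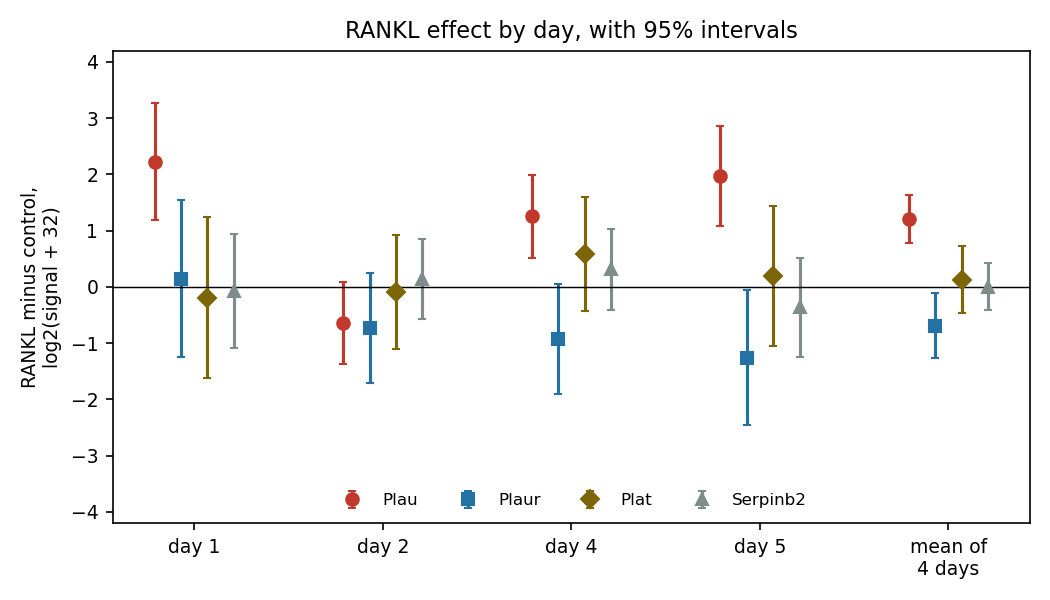
RANKL minus control difference in log2(signal + 32) for each gene at days 1, 2, 4 and 5 and averaged over the 4 days; points are estimates and bars are 95% intervals from limma, not adjusted for the number of probe sets. Plau lies at 2.23, -0.64, 1.26 and 1.97 by day, and Plaur lies at 0.15 at day 1 and below 0 at days 2, 4 and 5.

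Differences of the Plau effect between days did not pass the test. The effect at day 5 minus the mean effect of days 2 and 4 was 1.67 ± 0.47 (adjusted p = 0.477; 95% interval 0.63 to 2.70), where 0 of 12422 probe sets, or 0%, passed with limma and 1129 had an unadjusted p under 0.05. The pattern of lower signals at day 2 and higher signals on all arrays of days 4 and 5 was shared by 0.499% of probe sets. The mean effect of days 4 and 5 minus that of days 1 and 2 was 0.82 ± 0.39 for Plau (adjusted p = 0.626), a comparison in which 0.0403% of probe sets passed. This Plau value rests on the single pair of day 1 arrays: it was 2.26 without either or both of them (adjusted p from 0.242 to 0.26). For Plaur the same late minus early difference was -0.80 ± 0.53 (adjusted p = 0.726; -0.36 without the day 1 arrays), and the effect at day 5 minus the mean effect of days 2 and 4 was -0.43 ± 0.63 (adjusted p = 0.883).

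With time in culture, Plau rose in RANKL cells. The mean of days 4 and 5 minus that of days 1 and 2 was 1.54 ± 0.26 (2.90-fold, adjusted p = 0.00346), and it passed in 23 of 23 alternatives. Plau was the 1 member of 4 that passed, where 14.8% of probe sets did, so a change with time was common among all genes. In control cells the same difference was 0.71 ± 0.29 (adjusted p = 0.152), and it turned to -0.15 without the day 1 control array. There 0 of 4 members passed the threshold, against 10.9% of probe sets. An unadjusted p under 0.05 was found for 1 member and for 2979 of all 12422 probe sets. The difference between the 2 time courses is the late minus early effect given above, which did not pass with or without the day 1 arrays. In single-day terms, a comparison added after the values were seen, the Plau effect at day 4 minus that at day 2 was 1.90 ± 0.47 (adjusted p = 0.386) and the effect at day 5 minus that at day 2 was 2.62 ± 0.53 (adjusted p = 0.325), and in each 0.00805% of probe sets passed.

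Plaur, the urokinase receptor gene, had a signal of 1426 at day 1, 918 and 667 at day 2, 1444 and 451 at day 4, and 1231 and 549 at day 5 in RANKL cells. Control cells had 1283 at day 1, 1334 and 1307 at day 2, 1676 and 1917 at day 3, 1737 and 1417 at day 4, and 2013 at day 5. Of the 6 RANKL arrays of days 2, 4 and 5, 5 lay below all 5 control arrays of those days, an arrangement of at least 5 of 6 that 1.88% of probe sets shared. The exception was RANKL day 4 replicate 1, which lay within the control range.

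The averaged Plaur difference was -0.69 ± 0.26 (0.620-fold, adjusted p = 0.33; 95% interval -1.27 to -0.11), which did not pass, although its unadjusted p was 0.0232. The Plaur differences by day were 0.15 ± 0.63 on day 1 (adjusted p = 1), -0.73 ± 0.45 on day 2 (0.676), -0.92 ± 0.45 on day 4 (0.653) and -1.26 ± 0.55 on day 5 (0.332). Over 23 alternatives the averaged Plaur value ran from -0.97 to -0.44, and 0 passed. Replicates of RANKL day 5 lay far apart for Plaur and close together for Plau: the mean signal in RANKL cells was 890 ± 482 for Plaur and 1828 ± 2.76 for Plau (SD, n = 2). At day 4 the RANKL means were 948 ± 702 for Plaur and 975 ± 536 for Plau (SD, n = 2), so both varied there, and the array with more Plaur signal had less Plau signal. Plaur had 1444 and Plau had 596 on replicate 1, against 451 and 1354 on replicate 2.

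Other measures differed between these arrays too. Among the RANKL arrays, the beta-actin ratio was 1.18 on day 4 replicate 1, 1.34 on day 4 replicate 2, 1.08 on day 5 replicate 1 and 1.02 on day 5 replicate 2, so the low Plaur signal of the second replicates went with a higher ratio at day 4 and a lower one at day 5. With the ratio as a covariate the averaged Plaur difference was -0.44 (adjusted p = 0.697). The summed macrophage markers were 51960, 54450, 36276 and 29378 on the same 4 arrays, and 3 of the 8 macrophage markers fell with RANKL on average: Adgre1 (-0.76, adjusted p = 0.00618), Itgam (-1.08, adjusted p = 0.0171) and Fcgr1 (-1.77, adjusted p = 0.0318). Csf1r differed by -0.10 (adjusted p = 0.878) and Cd68 by 0.10 (adjusted p = 0.839). The part of these measures in the Plaur values was not tested.

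Plaur did not differ detectably with culture time: the difference was -0.36 ± 0.35 in RANKL cells (adjusted p = 0.6) and 0.44 ± 0.39 in control cells (adjusted p = 0.579). The first turned to 0.06 without RANKL day 1 replicate 1 and to 0.04 without RANKL day 4 replicate 2, and the second to -0.22 with the beta-actin ratio as a covariate.

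Plat, tissue-type plasminogen activator, was dim. In RANKL cells its signals were 20.6 at day 1, 23.8 and 28.7 at day 2, 22.9 and 90.3 at day 4, and 71.0 and 20.3 at day 5. In control cells they were 28.0 at day 1, 33.3 and 27.2 at day 2, 25.8 and 109.7 at day 3, 22.9 and 21.9 at day 4, and 32.1 at day 5. The signal was below the array's median on all 15 arrays. Only 3 arrays exceeded 34, RANKL day 4 replicate 2, RANKL day 5 replicate 1 and control day 3 replicate 2, each beside a replicate under 26. The averaged RANKL difference for Plat was 0.13 ± 0.27 (adjusted p = 0.942; 95% interval -0.47 to 0.72).

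Serpinb2, plasminogen activator inhibitor 2, was dim as well. In RANKL cells its signals were 15.3 at day 1, 36.8 and 6.99 at day 2, 40.4 and 17.4 at day 4, and 45.6 and 34.7 at day 5. In control cells they were 17.6 at day 1, 14.0 and 15.9 at day 2, 5.41 and 20.9 at day 3, 5.28 and 30.0 at day 4, and 60.4 at day 5. All 15 values were below the median of their array, and the groups overlapped at day 4 while the day 2 control pair lay between the RANKL values. The averaged difference for Serpinb2 was 0.01 ± 0.19 (adjusted p = 0.996; 95% interval -0.41 to 0.43).

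For these 2 dim genes no RANKL difference passed on any day. At day 1, where 1 array stands against 1, limma called 0 of 4 members and 0% of all probe sets, and 728 probe sets had an unadjusted p under 0.05, Plau among them. At day 2, 0 of 4 members passed, none at an unadjusted p under 0.05, against 0.853% of all probe sets. At day 4, 0 of 4 passed (1 at an unadjusted p under 0.05) against 0.266%, and at day 5, 0 of 4 (2 at an unadjusted p under 0.05, Plau and Plaur) against 0.918%. Of all 12422 probe sets, 1251 had an unadjusted p under 0.05 at day 2, 1010 at day 4 and 1765 at day 5. Plat differences by day ran from -0.19 at day 1 to 0.59 at day 4, and Serpinb2 differences from -0.36 at day 5 to 0.31 at day 4. With culture time Plat changed by 0.49 ± 0.37 in RANKL cells and -0.05 ± 0.40 in control cells, and Serpinb2 by 0.41 ± 0.26 in RANKL cells and 0.47 ± 0.28 in control cells, with adjusted p from 0.362 to 0.967. Detection calls were not used here, so whether these signals exceed the array's background is not known. The intervals above are not adjusted for the number of probe sets, so a difference within them, or somewhat beyond them, could have been missed.

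Signals of different probe sets are not on a common scale, so the 4 genes are not ranked by level. Within Plau, the order of the day means was RANKL day 5, RANKL day 4, RANKL day 1, control day 2, control day 5, control day 4, control day 3, RANKL day 2 and control day 1. No test was made between neighbours in this order. Both control day 4 arrays (335 and 384) lay above both day 3 arrays (326 and 234) and below the day 5 array (442), while the day 2 pair (348 and 569) overlapped days 4 and 5. Within Plaur the 4 highest day means were those of control days 5, 3 and 4 and of RANKL day 1, and the 3 lowest were those of RANKL days 4, 5 and 2, whose pairs overlapped one another.

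The surroundings of the 4 genes were read from 6 lists, most of which hold proteins that restrain, bind or follow plasminogen activation. The lists of coagulation genes and of other clade B serpins were read beside them and are not taken as parts of that pathway. With RANKL on average, 1.09% of all 12422 probe sets passed limma's test and 1375 had an unadjusted p under 0.05. The counts of the next 3 lists stand beside these shares. Of 5 represented inhibitors of plasminogen activators and plasmin (Serpina5, Serpinf2, Serpini1, A2m and Pzp), 0 passed and 2 had an unadjusted p under 0.05. Their median difference was 0.14 against 0.01 over all probe sets. Of these 5, Serpina5 and Pzp had the largest averaged differences, 0.32 ± 0.12 (adjusted p = 0.276) and 0.54 ± 0.21 (adjusted p = 0.333). Of 4 represented genes of plasminogen and its surface binding proteins (Plg, Anxa2, S100a10 and Plgrkt), 0 passed and 1 had an unadjusted p under 0.05. S100a10, which with annexin A2 forms a plasminogen receptor, differed by 0.54 ± 0.16 (adjusted p = 0.153), and its other probe set had the opposite sign (-0.18). Anxa2 differed by 0.02 ± 0.12 (adjusted p = 0.982). Of 5 represented other clade B serpins, the family of Serpinb2, 0 passed, 0 had an unadjusted p under 0.05, and the median was 0.01, as over all probe sets. No member of these 3 lists passed in any of the comparisons of RANKL with control or with culture time. In those comparisons the share of all probe sets past the threshold ran from 0% at day 1 to 14.8% with culture time in RANKL cells.

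Surface partners of the urokinase receptor moved in both directions with RANKL. On average 1 of 13 rose, Itgav, and 1 fell, Itgam, with a list median of 0.04, where 0.555% of all probe sets rose and 0.539% fell. Itgav, the integrin alpha v chain that binds vitronectin, had signals of 3318 at day 1, 4530 and 3910 at day 2, 4296 and 6045 at day 4, and 5694 and 7338 at day 5 in RANKL cells. In control cells it had 2817 at day 1, 3980 and 3738 at day 2, 1416 and 1423 at day 3, 1239 and 1920 at day 4, and 656 at day 5. The groups overlapped at day 2 and parted at days 4 and 5, as the plot of partner signals shows. RANKL arrays lay above the controls of the day for 17.5% of probe sets at day 4 and for 49.2% at day 5. For 5.26%, all RANKL arrays of days 4 and 5 lay above all controls of those days. Itgav rose by 1.33 ± 0.14 on average (adjusted p = 0.000958), by 1.70 ± 0.23 at day 4 (adjusted p = 0.0116) and by 3.24 ± 0.28 at day 5 (adjusted p = 0.00045). The averaged value was 0.69 without control day 5 replicate 1 (adjusted p = 0.155), and at day 4 the call was lost in 3 of 23 alternatives, without control day 4 replicate 1 (1.39), without RANKL day 4 replicate 2 (1.46) and with the beta-actin ratio (1.59). The 2 other Itgav probe sets disagreed in part and did not pass on average (0.62 and 0.60, adjusted p = 0.152 and 0.217) or at day 4 (-0.04 and 0.53, adjusted p = 0.998 and 0.764). At day 5 they gave 2.76 (adjusted p = 0.00712) and 1.57 (adjusted p = 0.0988).

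The Itgav effect also differed between days. It was larger on days 4 and 5 than on days 1 and 2 by 2.29 ± 0.27 (adjusted p = 0.01; lost in 3 of 23 alternatives, among them without control day 2 replicate 1 and without control day 5 replicate 1, where it was 1.52). In control cells Itgav fell by 1.68 with culture time (adjusted p = 0.00102; -1.08 without the control day 5 array), while in RANKL cells it rose by 0.61 ± 0.18 (adjusted p = 0.0448, lost in 13 of 23 alternatives, over which the value ran from 0.44 to 0.78). The other probe sets gave -0.04 and 0.36 for that time difference in RANKL cells, and 1.48 and 0.89 for the late minus early effect, none of which passed. Itgav and Plau both had their highest day mean in RANKL cells at day 5. In control cells Itgav fell with time, while the Plau difference was 0.71 (adjusted p = 0.152) and turned to -0.15 without the day 1 control array.

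Itgam, the integrin alpha M chain of the macrophage receptor Mac-1, is also among the 8 macrophage markers summed above. It had 128 at day 1, 42.4 and 46.2 at day 2, 1154 and 590 at day 4, and 474 and 279 at day 5 in RANKL cells. Control cells had 142 at day 1, 205 and 297 at day 2, 1827 and 2278 at day 3, 1218 and 1385 at day 4, and 1242 at day 5. RANKL arrays lay below the control arrays of the same day throughout. Taken day by day, that held for 19.2% of probe sets at day 2, 19.8% at day 4 and 26.9% at day 5. Itgam fell by 1.08 on average (SE 0.19, adjusted p = 0.0171, lost in 4 of 23 alternatives) and by 1.87 at day 2 (SE 0.32, adjusted p = 0.0257, lost in 6 of 23). The averaged Itgam value was -0.88 without control day 5 replicate 1, -1.02 without control day 2 replicate 2, -1.06 without control day 4 replicate 2, and -1.01 with the beta-actin ratio as a covariate, with adjusted p from 0.0554 to 0.186. At day 2 Itgam did not pass without any one of the 4 arrays of that day, with values from -2.11 to -1.64.

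At day 2 a second partner fell, Itgb5, the integrin beta 5 chain, by 1.83 (SE 0.35, adjusted p = 0.0394). Its signals were 148 and 300 in RANKL cells and 741 and 937 in control cells, and the call was lost in 14 of 23 alternatives, among them without any one of the 4 arrays of that day (from -2.27 to -1.38). The other Itgb5 probe set gave -0.15 (adjusted p = 0.947). Thus 2 of 13 partners fell and 0 rose at day 2, against 0.539% and 0.314% of all probe sets. At day 4, 1 of 13 rose against 0.217%, and at day 5, 1 of 13 against 0.515%, Itgav both times.

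With culture time 6 of 13 partners rose in RANKL cells and 0 fell, against 8.98% and 5.82% of all probe sets, and the list median was 0.61 against 0.05 over all probe sets. The largest rises were those of Itgam (2.40 ± 0.25), the scavenger and urokinase clearance receptor gene Lrp1 (1.05 ± 0.15), the integrin beta 2 chain Itgb2 (1.02 ± 0.13) and Igf2r (0.79 ± 0.17; 0.56 and not passed without the RANKL day 1 array), a receptor that binds the urokinase receptor. In control cells 4 of 13 rose and 1, Itgav, fell, against 5.98% and 4.87% of all probe sets. The 4 were Itgam (2.56 ± 0.28), the formyl peptide receptor Fpr2 (1.16 ± 0.29, lost in 5 of 22 and 0.58 with the beta-actin covariate), Lrp1 (0.63 ± 0.17, lost in 8 of 23 alternatives and 0.16 without the control day 1 array) and Itgb2 (0.56 ± 0.15, lost in 9 of 23).

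**Figure D3:**
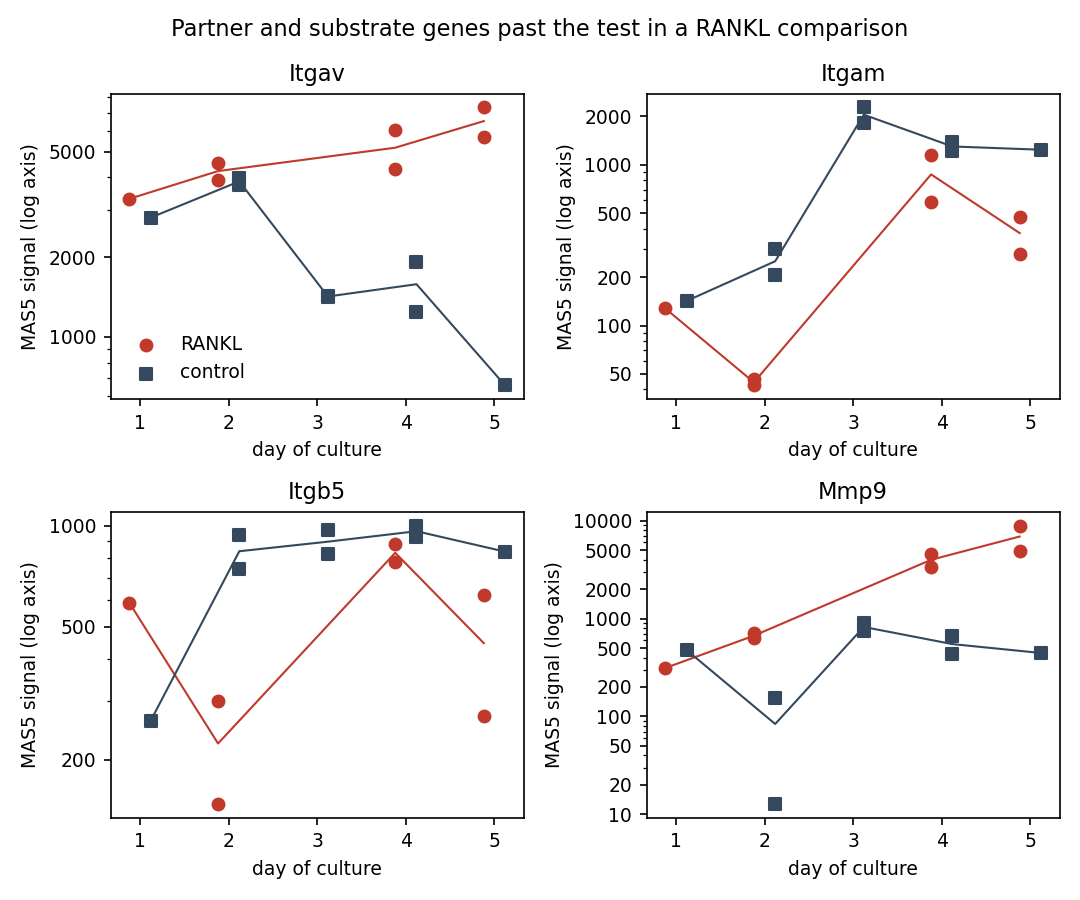
MAS5 signal (log axis) against day of culture for Itgav, Itgam, Itgb5 and Mmp9, with 1 point for each array, RANKL arrays as red circles to the left and control arrays as dark squares to the right, and lines through the day means. Itgav and Mmp9 of RANKL cells reach 7338 and 8824 at day 5, against 656 and 445 on the control array of that day, while Itgam of RANKL cells lies below control on each day.

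Of 13 represented substrates downstream of plasmin and urokinase, 1 rose with RANKL on average and 0 fell, against 0.555% and 0.539% of all probe sets. This was Mmp9, a gelatinase made as a proenzyme, which is also among the 6 osteoclast markers summed above. Its signals were 313 at day 1, 709 and 628 at day 2, 4576 and 3379 at day 4, and 8824 and 4929 at day 5 in RANKL cells. Control cells had 477 at day 1, 155 and 12.8 at day 2, 745 and 896 at day 3, 665 and 432 at day 4, and 445 at day 5. All RANKL arrays of days 2, 4 and 5 lay above the control arrays of the same day. Taken day by day, that held for 18.8% of probe sets at day 2, 17.5% at day 4 and 49.2% at day 5. Mmp9 rose by 2.24 ± 0.30 on average (adjusted p = 0.00515; 1.72 and adjusted p = 0.117 without control day 5 replicate 1), and its other probe set by 1.25 (adjusted p = 0.00618). The day 2 rise of 2.93 ± 0.51 (adjusted p = 0.0274) rests in part on the low control day 2 replicate 2: without it the value was 1.90 (adjusted p = 0.0967). Leaving out either RANKL array of day 2 ended the call as well (2.85 for the first replicate and 3.02 for the other), as did a fit with no intensity trend (2.93). The Mmp9 difference at day 4 was 2.80 (adjusted p = 0.0573), which did not pass. At day 5 the Mmp9 rise was 3.80 ± 0.63 (adjusted p = 0.019), and it was lost in 1 of 22 alternatives. With culture time in RANKL cells Mmp9 rose by 3.38 ± 0.41 (adjusted p = 0.000698). The other Mmp9 probe set gave 0.97 at day 2 (adjusted p = 0.242), which did not pass. At day 2, then, the brighter Mmp9 probe set was higher in RANKL cells, while Plau signals of the same arrays were lower than in control cells. The Plau difference of that day did not pass (-0.64, adjusted p = 0.58).

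Among 11 represented coagulation genes of macrophages, 0 passed with RANKL on average, against 1.09% of all probe sets, and 3 had an unadjusted p under 0.05, against 1375 of all 12422. Of the 11, 9 had negative differences, and the median was -0.19 against 0.01 over all probe sets. The largest of them, that of Pros1, which encodes the anticoagulant cofactor protein S, was -1.17 ± 0.30 (adjusted p = 0.105). F3, tissue factor, differed by -0.02 ± 0.13 (adjusted p = 0.982). With culture time Gas6, a ligand of TAM receptors related to protein S, rose in RANKL cells (1.58 ± 0.23, adjusted p = 0.00163) and in control cells (1.17 ± 0.25, adjusted p = 0.0132), and F10, coagulation factor X, rose in control cells (1.40 ± 0.29, adjusted p = 0.0109). Both control calls were lost with the beta-actin ratio as a covariate (1.25 for Gas6 and 1.35 for F10), and without the control day 5 array the values were 1.95 for Gas6 and 2.19 for F10.

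The gene whose pattern was most like that of Plau over the 15 arrays was Mitf, a transcription factor of osteoclasts and melanocytes, with a Pearson correlation of 0.87 on log2(signal + 32), followed by Col15a1 (0.85) and Fryl (0.80). Mitf signals were 163 at day 1, 182 and 137 at day 2, 292 and 342 at day 4, and 354 and 348 at day 5 in RANKL cells. In control cells they ranged from 120 at day 1 to 208 on an array of day 3. As with Plau, the 4 RANKL arrays of days 4 and 5 lay above all other arrays, save that the day 1 RANKL array of Plau exceeded 1 of its day 4 arrays. The choice of Mitf by correlation over the same arrays builds in this likeness. In 5.26% of all probe sets these 4 arrays lay above the controls of days 4 and 5.

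For Plaur the nearest genes were Gch1 (0.88), which encodes the first enzyme of tetrahydrobiopterin synthesis, Pigs (0.88), part of the GPI transamidase, and Fcgr1 (0.88), the high-affinity IgG receptor of macrophages. Gch1 had 699 and 319 at day 4 and 888 and 284 at day 5 in RANKL cells, against 1668 and 835 at day 4 and 1840 at day 5 in control cells. Fcgr1 had 553 and 134 at day 4 and 360 and 89.7 at day 5 in RANKL cells, against 1143 and 925 at day 4 and 2048 at day 5 in control cells. In Gch1 and Fcgr1, as in Plaur, replicate 2 was the lower RANKL array at both days, a likeness that their choice by correlation over the same arrays builds in. The nearest genes of the dim Plat were Zbtb46 (0.84), Ramp3 (0.82) and Cacna1g (0.82), and those of Serpinb2 were Sinhcaf (0.86), Sec61a2 (0.85) and Smc3 (0.84). These correlations were the highest of 8250 other genes, over arrays that share treatments and days, and they are descriptions.

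**Figure D4:**
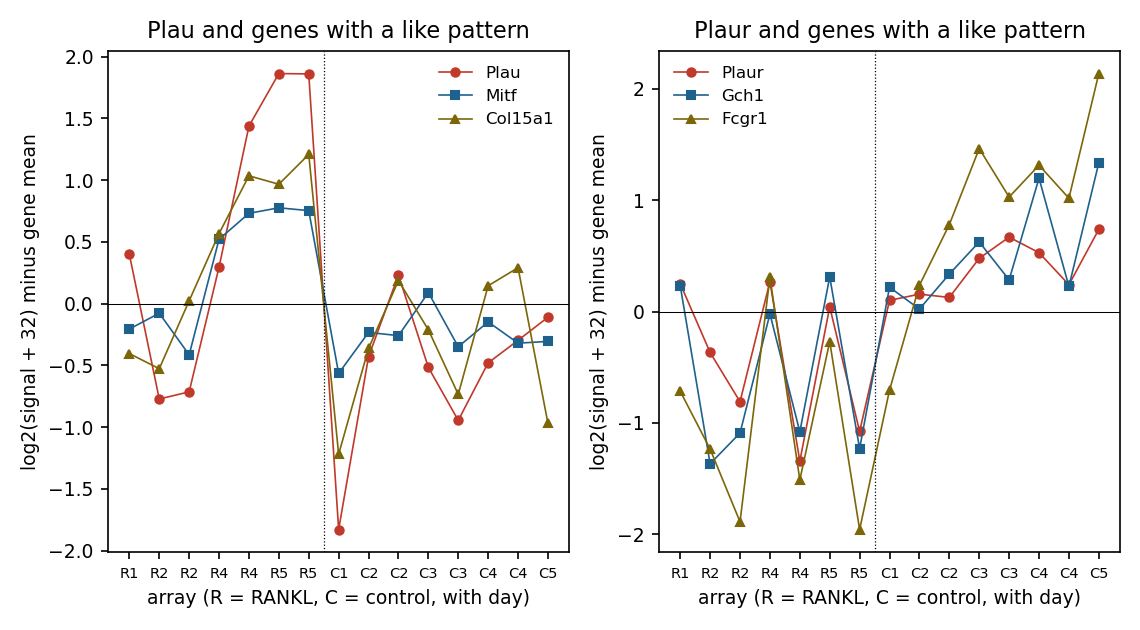
log2(signal + 32) minus the mean of each gene over the 15 arrays, for Plau with Mitf and Col15a1 (left) and Plaur with Gch1 and Fcgr1 (right); each point is 1 array, RANKL arrays to the left of the dotted line and control arrays to the right, in order of day and replicate. The left curves are highest on the RANKL arrays of days 4 and 5, and the right curves alternate between the replicates of RANKL days 4 and 5 (451 and 549 for Plaur on the second replicates).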

How the data were processed

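Total RNA of each sample was hybridised to 1 Affymetrix array. The authors made the deposited values, probe set signals in linear intensity units, with MAS5, per the submitters' processing notes; the version is not given in the sources used here. The 2% trimmed mean was 500 on each array, and no further normalization was applied. Of 12488 probe sets, 66 controls were left out and 12422 were tested, dim ones included; 10833 have 1 gene symbol, 396 several and 1193 none in the platform annotation. Listed genes were read from the probe set with the highest mean signal. A model with 1 mean for each of 9 groups was fitted with limma 3.58.1 in R 4.3.3 (lmFit, eBayes with an intensity trend; 6 residual and 5.39 prior degrees of freedom); a group with 1 array takes its spread from the other groups. The procedure was tested on simulated data. The number of arrays limits the precision. The members, gene lists, comparisons and alternatives were chosen with earlier results of these data known. Named genes are the 4 members, up to 4 genes of a list past the threshold by size of change, the 3 genes most correlated with each member, and a few others singled out after their values were seen. Replicate numbers were not used to pair the arrays in the main fit. Over 15 pairs of groups, the correlation of replicate differences ran from -0.17 to 0.12, which does not settle whether the arrays were paired. Alternatives tried were quantile normalization, a pseudocount of 1 or 100, the brighter 50% of probe sets, no intensity trend, a replicate block, the beta-actin ratio as a covariate, no day 1 arrays, and each array left out. Differences of the effect between single days were added after the data were seen.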

Additional observations from a re-analysis of the deposited data

Results flagged for a closer look

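The Plau difference between RANKL and control cells took opposite directions at different days: the 1 RANKL array of day 1 lay above the 1 control array (643 against 112), both RANKL arrays of day 2 lay below both control arrays, and the RANKL arrays of days 4 and 5 lay above the control arrays of their day. The difference itself was then tested with limma, a comparison added after the values were seen. The Plau effect at day 4 minus that at day 2 was 1.90 ± 0.47 (adjusted p = 0.386; 95% interval 0.86 to 2.94), where 0.00805% of probe sets passed. The effect at day 5 minus that at day 2 was 2.62 ± 0.53 (adjusted p = 0.325; 95% interval 1.46 to 3.77), again with 0.00805% past the threshold. Neither passed the adjustment over all probe sets. On single days, both RANKL arrays lay below both control arrays for 19.2% of probe sets at day 2 and above them for 17.5% at day 4. At day 5 both RANKL arrays lay above the 1 control array for 49.2% of probe sets.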

How the results depend on the processing

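Plau kept the sign of its RANKL difference on each day and on average under the alternatives that gave a value, while Plat and Serpinb2 gave none with the brighter 50% of probe sets. The replicate block gave 1.17 for the averaged Plau difference (adjusted p = 0.0171) and changed no member's call. Leaving out 1 array at a time gave averaged Plau values from 0.86 to 1.35, with 0 to 1 members past the threshold; the 0 came without control day 5 replicate 1 (0.95). It gave 0 to 1 members at day 4 and at day 5. At day 5, 1 member, Plau, also passed with a pseudocount of 1, a pseudocount of 100, the brighter 50% of probe sets, the beta-actin covariate and no day 1 arrays. Some values that had not passed changed sign. With a pseudocount of 100, the Serpinb2 average was -0.0043. With quantile normalization, the Serpinb2 average was -0.0281, Serpinb2 at day 1 0.0003, Plat at day 5 -0.0105 and Plat with control culture time 0.0247. With the beta-actin covariate, Plaur at day 1 was -0.0038, and control culture time gave -0.2175 for Plaur and 0.2561 for Plat. Without both day 1 arrays, culture time gave 0.0610 for Plaur in RANKL cells and -0.1503 for Plau in control cells. Over single arrays left out, the average ran from -0.0195 to 0.2695 for Plat and from -0.0958 to 0.1292 for Serpinb2. Serpinb2 ran from -0.2665 to 0.5520 at day 2 and from -0.0535 to 0.6810 at day 4, and Plat from -0.2949 to 0.6841 at day 5. The Plaur effect at day 5 minus that of days 2 and 4 ran from -0.9890 to 0.1305. Culture time ran from -0.7615 to 0.0610 for Plaur in RANKL cells, and in control cells from -0.1503 to 0.8802 for Plau and from -0.0050 to 0.6501 for Serpinb2. The cause of these turns was not tested. Single arrays at day 1 and at control day 5 limit what those days can show.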
